A study of Fragaria vesca with 9 samples.

Results

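Ferritin, an iron store, and ORG2, a regulator of iron acquisition, lay on opposite sides of wild type, and in opposite order, in fruits of 2 mutant lines of woodland strawberry (Fragaria vesca). In Fvmate51-1 fruits ferritin RNA was 3.37-fold lower and ORG2 RNA 1.88-fold higher than in WT fruits. In Fvmate51-2 fruits ferritin RNA was 15.6-fold higher and ORG2 RNA 54.3-fold lower than in WT fruits. The 2 genes are FvH4_6g10770, listed as chloroplastic ferritin, and FvH4_2g11650, listed as transcription factor ORG2, out of 34777 listed genes. They were chosen by name from their measured levels in these same libraries, so their own levels are given as a description, with no test.

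The fruits were collected at 26 days postanthesis in 3 groups of 3 poly(A) RNA libraries: Fvmate51-1 and Fvmate51-2, which are mutants of FvMATE51, and wild type (WT). The sources used here do not give the mutations, how the lines were made, or whether replicates came from separate plants, so the tests measure only the spread between these libraries. The level of FvMATE51 itself is not analysed here. Its family, the MATE transporters, moves organic compounds such as citrate and flavonoids across membranes. Levels are FPKM, a fragment count scaled to gene length and to library size, so they can be compared between genes. Depth in the listed genes ran between 31587667 and 51649115 fragments, and each library had 15054 to 15328 genes at 1 FPKM or more.

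Plant ferritins assemble in plastids into hollow shells that hold iron as a mineral, which keeps free iron from producing oxidants. In Arabidopsis their genes are switched on when iron is plentiful. ORG2 belongs to subgroup Ib of the basic helix-loop-helix transcription factors, whose Arabidopsis members accumulate when iron is short and pair with the factor FIT to switch on ferric reductase and iron import genes in roots. Ferritin and ORG2 therefore mark opposite ends of iron supply in Arabidopsis; their behaviour in strawberry fruit is known here only from the values that follow.

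The ferritin gene lies on the plus strand of chromosome 6 from 6464165 to 6467043, as listed, with 1692 bases of transcript and a ferritin-like domain. It was measured at 3.17, 4.64 and 3.54 FPKM in Fvmate51-1, 204, 204 and 189 FPKM in Fvmate51-2, and 12.6, 13.6 and 12.1 FPKM in WT. The groups did not overlap: every Fvmate51-1 library was below every WT library, and every Fvmate51-2 library was above them. The share of all tested genes whose groups do not overlap was not counted, here or for any gene below. The means were 3.78 ± 0.767 FPKM in Fvmate51-1, 199 ± 8.29 FPKM in Fvmate51-2 and 12.7 ± 0.77 FPKM in WT (SD, n = 3 each). Among all listed genes ordered by mean FPKM, ferritin was number 414 in Fvmate51-2, 11171 in Fvmate51-1 and 6372 in WT. Ferritin was thus among the abundant transcripts of the fruit in Fvmate51-2 alone of the 3 groups, and Fvmate51-2 held 52.6-fold more of it than Fvmate51-1. These levels rest on 220, 276 and 254 fragments in Fvmate51-1, 13333, 13688 and 12861 in Fvmate51-2, and 946, 922 and 1074 in WT.

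ORG2 lies on the plus strand of chromosome 2 from 10174591 to 10176131, as listed, with 1252 bases of transcript and a helix-loop-helix DNA-binding domain. Its levels were 14.6, 17.0 and 17.3 FPKM in Fvmate51-1, 0.0825, 0.121 and 0.278 FPKM in Fvmate51-2, and 9.49, 8.32 and 8.31 FPKM in WT. The groups again did not overlap, in the order opposite to that of ferritin. Mean levels were 16.3 ± 1.46 FPKM in Fvmate51-1, 0.16 ± 0.104 FPKM in Fvmate51-2 and 8.71 ± 0.68 FPKM in WT (SD, n = 3 each). In Fvmate51-2 the transcript was nearly gone: 4, 6 and 14 fragments were counted in its 3 libraries, 24 in all, against 2422 in Fvmate51-1 and 1494 in WT. The exact 95% Poisson intervals of those levels, which cover counting error only, were 0.0225 to 0.211, 0.0443 to 0.262 and 0.152 to 0.467 FPKM. The ORG2 level was thus low in each Fvmate51-2 library, while its size there is known only roughly. The 102-fold higher mean in Fvmate51-1 than in Fvmate51-2 carries that uncertainty.

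**Figure D1:**
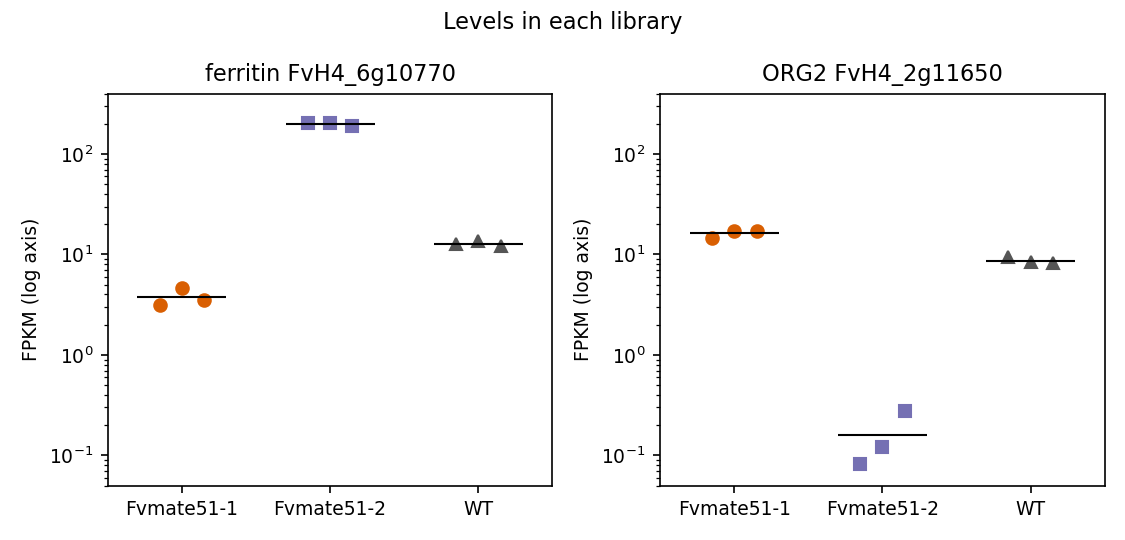
FPKM on a log axis of ferritin (left panel) and ORG2 (right panel) in each of the 9 libraries, by group, with a line at each group mean. Ferritin spans 3.17 to 4.64 FPKM in Fvmate51-1, 189 to 204 in Fvmate51-2 and 12.1 to 13.6 in WT, and ORG2 runs in the opposite order, with Fvmate51-2 at 0.0825 to 0.278 FPKM.

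The ratio of ferritin to ORG2 in the same library joins the pair in one value. It was 0.216, 0.272 and 0.205 in Fvmate51-1, 2466, 1688 and 679.8 in Fvmate51-2, and 1.32, 1.63 and 1.45 in WT. Near parity in WT, the pair leaned towards ORG2 in each Fvmate51-1 library and towards ferritin in each Fvmate51-2 library. Within Fvmate51-2 the coefficient of variation was 4.17% for ferritin and 64.7% for ORG2.

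All changes below are on the log2(FPKM + 1) scale, which understates the changes of genes near 0, and were fitted with limma over 15890 genes. On that scale ferritin differed from WT by -1.53 in Fvmate51-1 and 3.86 in Fvmate51-2, and ORG2 by 0.83 in Fvmate51-1 and -3.07 in Fvmate51-2. In Fvmate51-2 against WT, ferritin was number 4 of the 15890 genes counted from the most positive value and ORG2 number 21 from the most negative. In Fvmate51-1 against WT, ferritin was number 152 from the most negative value and ORG2 number 475 from the most positive. The Fvmate51-2 values are thus the more extreme in both genes, and both lines share the same 3 WT libraries. In bulk fruit RNA, fewer cells of a type and less RNA per cell cannot be told apart for any gene here.

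One other listed gene is a ferritin: ferritin-3 (FvH4_7g25100, chromosome 7, 19215242 to 19217868), also listed as chloroplastic. Ferritin-3 stood at 12.6, 13.4 and 11.9 FPKM in Fvmate51-1, 53.9, 54.4 and 52.6 FPKM in Fvmate51-2, and 21.2, 21.1 and 26.6 FPKM in WT. It had the same order of groups as the first ferritin, without overlap, and a smaller span. Ferritin-3 fell in Fvmate51-1 (log2 change -0.81 ± 0.093 SE, limma adjusted p = 0.000112) and rose in Fvmate51-2 (1.20 ± 0.093, adjusted p = 5.63e-06), both against WT. The lines differed by 2.00 (adjusted p = 9.38e-08), which is 4.24-fold in mean FPKM. In WT fruits ferritin-3 was the more abundant of the 2 ferritins, at 23 ± 3.14 FPKM. In Fvmate51-2 it was the lesser, at 53.6 ± 0.951 FPKM. How the authors' counting shares reads between similar genes is not given in the sources used here.

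The iron storage list holds 9 genes beside the first ferritin, of which 4 passed the filter on low values. The rest of that list are PCC13-62 desiccation proteins, caught because their domain is called ferritin-like; they are not known to be ferritins. Among the 4 tested genes, 4 were lower in Fvmate51-1 than in WT, where 35.5% of all tested genes were called, 16.5% higher and 19.0% lower; 1 of them, FvH4_2g25300, had a single Fvmate51-1 library at 1 FPKM or more and so passed the filter mainly through the groups where it is higher. In Fvmate51-2 against WT 1 of the 4 was higher and 1 lower, where 30.4% of all tested genes were called, 15.3% higher and 15.1% lower. The desiccation protein FvH4_2g25280 averaged 3.75 ± 0.0971 FPKM in Fvmate51-1, 8.19 ± 0.579 FPKM in Fvmate51-2 and 6.96 ± 0.627 FPKM in WT, and fell in Fvmate51-1 (-0.74, adjusted p = 0.000152). FvH4_4g20640 averaged 6.20 ± 1.11, 3.47 ± 0.876 and 9.28 ± 1.5 FPKM in the same groups, and fell in Fvmate51-2 (-1.21, adjusted p = 0.000323). Its lower call in Fvmate51-1 (-0.51, adjusted p = 0.0333) was lost without any one of 4 libraries, with adjusted p up to 0.112.

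ORG2 had no partner to compare it with. A further gene listed as ORG2, FvH4_7g03950, was at 0 in every library, as was FvH4_3g30660, listed as the factor FIT. The other FIT entry, FvH4_3g30650, was at most 0.0303 FPKM in any library. None of the 3 passed the filter on low values, and so ORG2 was the one gene of the subgroup Ib and FIT list with a measurable level in these fruits. Of 10 other tested iron regulators, 0 were higher and 2 lower in Fvmate51-1, and 0 were higher and 2 lower in Fvmate51-2, by limma's adjusted p. That is 20% in each, beside 35.5% of all tested genes in Fvmate51-1 and 30.4% in Fvmate51-2. At an unadjusted p under 0.05, 1 was higher in Fvmate51-1 and 0 in Fvmate51-2, and limma-voom called 0 higher in both. Between the lines 0 were called, where 27.6% of all tested genes were, 15.4% higher and 12.2% lower in Fvmate51-2; at an unadjusted p under 0.05, 1 was higher and 3 were lower, and limma-voom called 0 higher and 1 lower. ILR3 (FvH4_3g21720), which in Arabidopsis pairs with related factors upstream of subgroup Ib and also represses ferritin genes, averaged 61.7 ± 1.47 FPKM in Fvmate51-1, 73.9 ± 2.85 in Fvmate51-2 and 77.1 ± 10.9 in WT. Its lower call in Fvmate51-1 (-0.31, adjusted p = 0.0257) was lost without any one of the 3 Fvmate51-1 libraries, with adjusted p of 0.0547 to 0.061. A further gene listed as ILR3 (FvH4_3g02910) averaged 45.1 ± 1.17, 45.4 ± 1.9 and 53.2 ± 9.59 FPKM in the same groups. It was not called against WT in Fvmate51-1 (limma adjusted p = 0.133) or Fvmate51-2 (0.16), nor between the lines (0.963). The repressor bHLH47 (FvH4_5g15171), which in Arabidopsis is known as POPEYE, averaged 5.26 ± 0.378, 4.24 ± 0.627 and 5.57 ± 0.472 FPKM in the same groups. Its lower call in Fvmate51-2 (-0.33, adjusted p = 0.042) was lost in 11 of the alternatives, with adjusted p up to 0.151. The remaining lower call in each line is FvH4_2g09101, listed as a lignan reductase and caught only because its database entry name resembles that of ILR3.

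**Figure D2:**
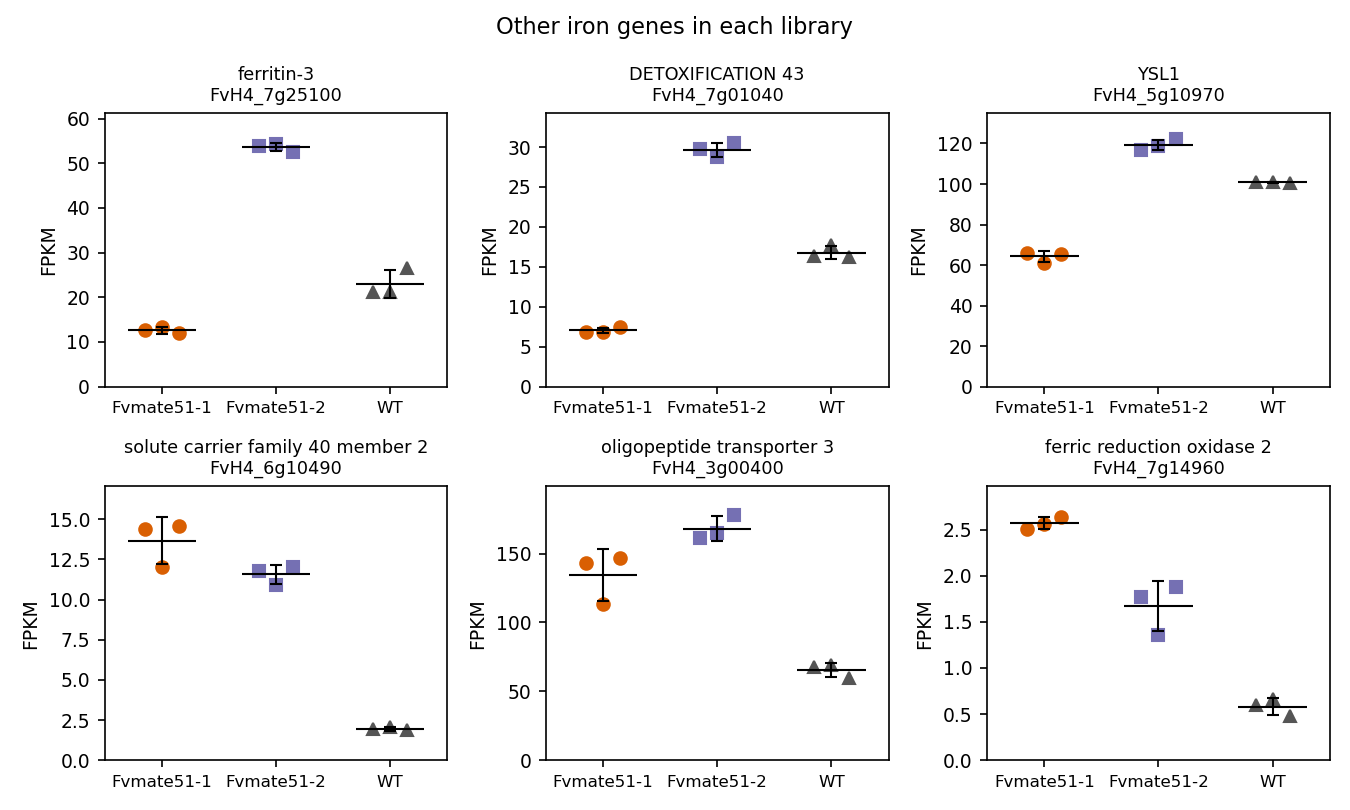
FPKM in each library of 6 iron genes other than the ferritin and ORG2 pair, by group, with the group mean and SD (n = 3). Ferritin-3, DETOXIFICATION 43 and YSL1 are lowest in Fvmate51-1 and highest in Fvmate51-2, while solute carrier family 40 member 2, oligopeptide transporter 3 and ferric reduction oxidase 2 are above WT in both lines.

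Ferric reduction and iron import are the steps that ORG2 and FIT control in Arabidopsis roots. Ferric reduction oxidase 2 (FvH4_7g14960), the ferric reductase of the Arabidopsis root surface, measured 2.51, 2.56 and 2.64 FPKM in Fvmate51-1, 1.77, 1.36 and 1.88 FPKM in Fvmate51-2, and 0.596, 0.661 and 0.483 FPKM in WT. Every library of both lines was above every WT library. It passed the filter on low values only through the mutant libraries, so its difference from WT is given as these values, with no test. The reductase was lower in Fvmate51-2 than in Fvmate51-1 by 0.42 (adjusted p = 0.0143), a call lost without Fvmate51-2 replicate 2 (adjusted p = 0.0645).

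A gene listed as mitochondrial ferric reduction oxidase 8 (FvH4_5g06130) has a listed transferase domain and no listed ferric reductase domain. It averaged 3.40 ± 0.178 FPKM in Fvmate51-1, 5.68 ± 0.408 FPKM in Fvmate51-2 and 3.02 ± 0.651 FPKM in WT. It rose in Fvmate51-2 (0.74, adjusted p = 0.00122), and its Fvmate51-1 change of 0.14 did not pass (adjusted p = 0.394). Ferric reduction oxidase 5 (FvH4_7g30122) averaged 1.25 ± 0.0767, 0.933 ± 0.0904 and 0.72 ± 0.0875 FPKM in the same groups. It passed the filter only through the Fvmate51-1 libraries, so no test of it is given. It lies close to 2 genes listed as ferric reduction oxidase 4, and its value may depend on how reads of similar genes were assigned. Fe(2+) transport protein 3 (FvH4_2g31850), of the ZIP family of metal importers and listed as chloroplastic, averaged 28.2 ± 2.65 FPKM in Fvmate51-1, 19.6 ± 1.49 FPKM in Fvmate51-2 and 35.3 ± 2.39 FPKM in WT. It fell in Fvmate51-2 (-0.82, adjusted p = 7.97e-05) and was lower there than in Fvmate51-1 (-0.50, adjusted p = 0.00209). Its lower call in Fvmate51-1 (-0.32, adjusted p = 0.0221) was lost in 5 of the alternatives. Of 6 tested genes in the iron uptake list, 2 were called higher and 1 lower in each line against WT. That list was matched by name and includes genes listed as chloroplastic or mitochondrial. The called share was 50% in each line, beside 35.5% of all tested genes in Fvmate51-1 and 30.4% in Fvmate51-2. With ferric reduction oxidases 2 and 5 among them, these counts are a description only.

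Chelators and long-distance carriers keep iron soluble and move it between organs. Of 12 tested genes in that list, 5 were higher and 2 lower in Fvmate51-1, and 8 were higher and 0 lower in Fvmate51-2 by limma's adjusted p (0 lower also at an unadjusted p under 0.05 and by limma-voom). Over all tested genes 16.5% were higher and 19.0% lower in Fvmate51-1, and 15.3% and 15.1% in Fvmate51-2. The median changes were 0.19 in Fvmate51-1 and 0.52 in Fvmate51-2, beside -0.01 and 0.02 over all tested genes. The counts of higher genes include FvH4_3g16731, a further oligopeptide transporter 3 gene that passed the filter only through the mutant libraries. The gene with the largest rise of this list in each line was solute carrier family 40 member 2 (FvH4_6g10490, chromosome 6, 6294428 to 6298938), a homologue of ferroportin whose Arabidopsis counterpart loads metal into the root vacuole. It measured 14.4, 12.0 and 14.6 FPKM in Fvmate51-1, 11.8, 10.9 and 12.0 FPKM in Fvmate51-2, and 1.94, 2.08 and 1.85 FPKM in WT. Each mutant library was far above each WT library, by 6.97-fold in the mean of Fvmate51-1 (2.30 ± 0.094, adjusted p = 3.86e-08) and 5.91-fold in Fvmate51-2 (2.09 ± 0.094, adjusted p = 9.35e-08). The lines differed by -0.22, which did not pass (adjusted p = 0.114).

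Oligopeptide transporter 3 (FvH4_3g00400), which in Arabidopsis loads iron and copper into the phloem, measured 143, 113 and 147 FPKM in Fvmate51-1, 161, 165 and 178 FPKM in Fvmate51-2, and 67.6, 69.1 and 59.5 FPKM in WT. It rose 2.05-fold in Fvmate51-1 (1.02 ± 0.106, adjusted p = 5e-05) and 2.57-fold in Fvmate51-2 (1.35 ± 0.106, adjusted p = 5.85e-06). Its difference between the lines (0.33, adjusted p = 0.0396) was lost in 11 of the alternatives, with adjusted p up to 0.156. ZINC INDUCED FACILITATOR 1 (FvH4_7g04820), a vacuolar importer of the metal chelator nicotianamine in Arabidopsis, averaged 19.7 ± 0.793 FPKM in Fvmate51-1, 21.2 ± 0.445 FPKM in Fvmate51-2 and 9.87 ± 0.408 FPKM in WT. It rose by 0.93 in Fvmate51-1 (adjusted p = 4.17e-06) and by 1.03 in Fvmate51-2 (adjusted p = 1.88e-06).

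Another pair of genes in this list, picked out after their values were seen, moved in opposite directions in the lines. DETOXIFICATION 43 (FvH4_7g01040, chromosome 7, 1453252 to 1461935) is a MATE transporter, of the family of FvMATE51, and its Arabidopsis namesake releases citrate that keeps iron soluble in the xylem. It measured 6.89, 6.82 and 7.41 FPKM in Fvmate51-1, 29.7, 28.7 and 30.5 FPKM in Fvmate51-2, and 16.4, 17.7 and 16.2 FPKM in WT. Its groups did not overlap and stood in the order of the ferritins, a pattern not counted over all tested genes. It fell in Fvmate51-1 (-1.14 ± 0.072, adjusted p = 1.14e-06), rose in Fvmate51-2 (0.79 ± 0.072, adjusted p = 1.9e-05), and differed between the lines by 1.93 (adjusted p = 1.63e-08). YSL1 (FvH4_5g10970), a carrier of metal-nicotianamine complexes, measured 66.1, 61.2 and 65.6 FPKM in Fvmate51-1, 117, 119 and 122 FPKM in Fvmate51-2, and 101.3, 101.3 and 100.5 FPKM in WT. It fell in Fvmate51-1 (-0.64 ± 0.061, adjusted p = 2.52e-05) and differed between the lines by 0.88 (adjusted p = 2.2e-06). Its rise in Fvmate51-2 (0.24, adjusted p = 0.0144) was lost without Fvmate51-2 replicate 2 (adjusted p = 0.0503) or without Fvmate51-2 replicate 3 (adjusted p = 0.062).

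A few more carriers were called against WT in Fvmate51-2 and not in Fvmate51-1, and were likewise picked out after their values were seen. Solute carrier family 40 member 3 (FvH4_6g07510), the plastid relative of ferroportin, averaged 13.9 ± 1.64 FPKM in Fvmate51-1, 21 ± 0.56 FPKM in Fvmate51-2 and 13.6 ± 1.65 FPKM in WT. It was higher in Fvmate51-2 than in WT by 0.60 (adjusted p = 0.00159) and than in Fvmate51-1 by 0.57 (adjusted p = 0.00216). DETOXIFICATION 42 (FvH4_6g23370), whose Arabidopsis namesake exports citrate from roots, averaged 15.3 ± 1.23, 20.7 ± 0.928 and 15.2 ± 2.02 FPKM in the same groups and rose in Fvmate51-2 (0.43, adjusted p = 0.00843). Its difference between the lines (0.41, adjusted p = 0.0105) was lost when libraries were rescaled to the same FPKM sum (adjusted p = 0.0635).

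Vacuoles and organelles are the other places where plant cells put iron. Vacuolar iron transporter 1 (FvH4_4g33340), which loads iron into the vacuole in Arabidopsis seeds, averaged 1.68 ± 0.0907 FPKM in Fvmate51-1, 3.0 ± 0.262 FPKM in Fvmate51-2 and 1.04 ± 0.367 FPKM in WT. Its WT libraries stood at 0.821, 0.827 and 1.46 FPKM, so it passed the filter through the mutant libraries, and its difference from WT is given with no test. It was higher in Fvmate51-2 than in Fvmate51-1 (0.57, adjusted p = 0.00737). Nramp2 (FvH4_2g33450), a metal transporter whose Arabidopsis counterpart handles manganese in the Golgi, averaged 5.95 ± 0.973 FPKM in Fvmate51-1, 6.91 ± 0.556 FPKM in Fvmate51-2 and 8.68 ± 0.577 FPKM in WT. It fell in Fvmate51-1 (-0.49, adjusted p = 0.00798).

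TIC 21 (FvH4_2g05240), a protein of the inner plastid envelope that in Arabidopsis also acts as an iron permease, averaged 26.3 ± 2.70 FPKM in Fvmate51-1, 34.3 ± 1.39 FPKM in Fvmate51-2 and 39.1 ± 4.0 FPKM in WT. It fell in Fvmate51-1 (-0.55, adjusted p = 0.0015), and its difference between the lines (0.38, adjusted p = 0.0136) was lost without Fvmate51-2 replicate 3 (adjusted p = 0.0546). Frataxin (FvH4_6g44280), a mitochondrial protein of iron-sulfur cluster assembly, averaged 10.3 ± 0.316, 11.1 ± 1.71 and 14.4 ± 2.27 FPKM in the same groups. Its lower call in Fvmate51-1 (-0.44, adjusted p = 0.0206) was lost without any one of 3 libraries, with adjusted p of 0.0563 to 0.0584. Of 19 tested genes of iron-sulfur cluster assembly, 0 were higher and 1 lower in Fvmate51-1, and 0 were higher and 2 lower in Fvmate51-2, by limma's adjusted p; 0 were higher at an unadjusted p under 0.05 or by limma-voom. The called shares were 5.26% in Fvmate51-1 and 10.5% in Fvmate51-2, beside 35.5% and 30.4% of all tested genes. Of 16 tested ferredoxins, aconitases and other genes with such a domain, 1 was higher and 4 lower in Fvmate51-1, and 1 was higher and 1 lower in Fvmate51-2, which is 31.2% and 12.5% called beside the same 35.5% and 30.4%.

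Heme is broken down by heme oxygenase, which frees its iron in the plastid. Heme oxygenase 1 (FvH4_1g03240) measured 56.5, 55.6 and 57.1 FPKM in Fvmate51-1, 86.4, 87.6 and 85.4 FPKM in Fvmate51-2, and 68.6, 71.1 and 83.5 FPKM in WT. The order of groups was again that of the ferritins, and the groups did not overlap, though WT replicate 3 came close to Fvmate51-2. Heme oxygenase 1 fell in Fvmate51-1 (-0.39 ± 0.078, adjusted p = 0.00384) and was higher in Fvmate51-2 than in Fvmate51-1 by 0.61 (adjusted p = 0.000209). The Fvmate51-2 change of 0.22 against WT did not pass (adjusted p = 0.0561).

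Enzymes that remove oxidants depend on metals and matter where free iron is present. Of 10 tested, 3 were higher and 4 lower in Fvmate51-1 against WT, 4 were higher and 0 lower in Fvmate51-2 against WT, and 4 were higher and 0 lower in Fvmate51-2 against Fvmate51-1. Against WT in Fvmate51-2, limma gave 1 lower at an unadjusted p under 0.05 and limma-voom 0; between the lines both gave 0. The called shares were 70%, 40% and 40% in these comparisons, beside 35.5%, 30.4% and 27.6% of all tested genes. Cytosolic copper/zinc superoxide dismutase (FvH4_6g04231), which turns superoxide into hydrogen peroxide, averaged 138 ± 3.77 FPKM in Fvmate51-1, 179.8 ± 18.4 FPKM in Fvmate51-2 and 103 ± 10.2 FPKM in WT. It rose in both lines (0.43, adjusted p = 0.00577 in Fvmate51-1; 0.80, adjusted p = 0.000112 in Fvmate51-2). Its difference between the lines (0.37, adjusted p = 0.0135) was lost without Fvmate51-2 replicate 1 (adjusted p = 0.0657) or 2 (adjusted p = 0.058). The plastid form (FvH4_3g30620) averaged 16.9 ± 0.231, 16.4 ± 0.534 and 10.9 ± 1.32 FPKM in the same groups and rose by 0.59 in Fvmate51-1 (adjusted p = 0.000567) and 0.55 in Fvmate51-2 (adjusted p = 0.000911). The copper chaperone that loads these dismutases (FvH4_5g01090) averaged 5.63 ± 0.996 FPKM in Fvmate51-1, 4.61 ± 0.485 FPKM in Fvmate51-2 and 2.69 ± 0.457 FPKM in WT, and rose by 0.84 in Fvmate51-1 (adjusted p = 0.00102) and 0.61 in Fvmate51-2 (adjusted p = 0.00728).

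Of the enzymes that clear hydrogen peroxide with a heme cofactor, 2 that differed between the lines were picked out after their values were seen. Catalase isozyme 1 (FvH4_5g25260) averaged 89.8 ± 12.8 FPKM in Fvmate51-1, 148 ± 5.04 FPKM in Fvmate51-2 and 124 ± 5.12 FPKM in WT. It fell in Fvmate51-1 (-0.47, adjusted p = 0.00459) and was higher in Fvmate51-2 than in Fvmate51-1 by 0.72 (adjusted p = 0.00031). L-ascorbate peroxidase 2 (FvH4_6g15200) averaged 5.29 ± 0.771, 9.54 ± 0.315 and 5.07 ± 1.35 FPKM in the same groups and rose in Fvmate51-2 (0.82, adjusted p = 0.00224), where it was also higher than in Fvmate51-1 (0.75, adjusted p = 0.00371).

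**Figure D3:**
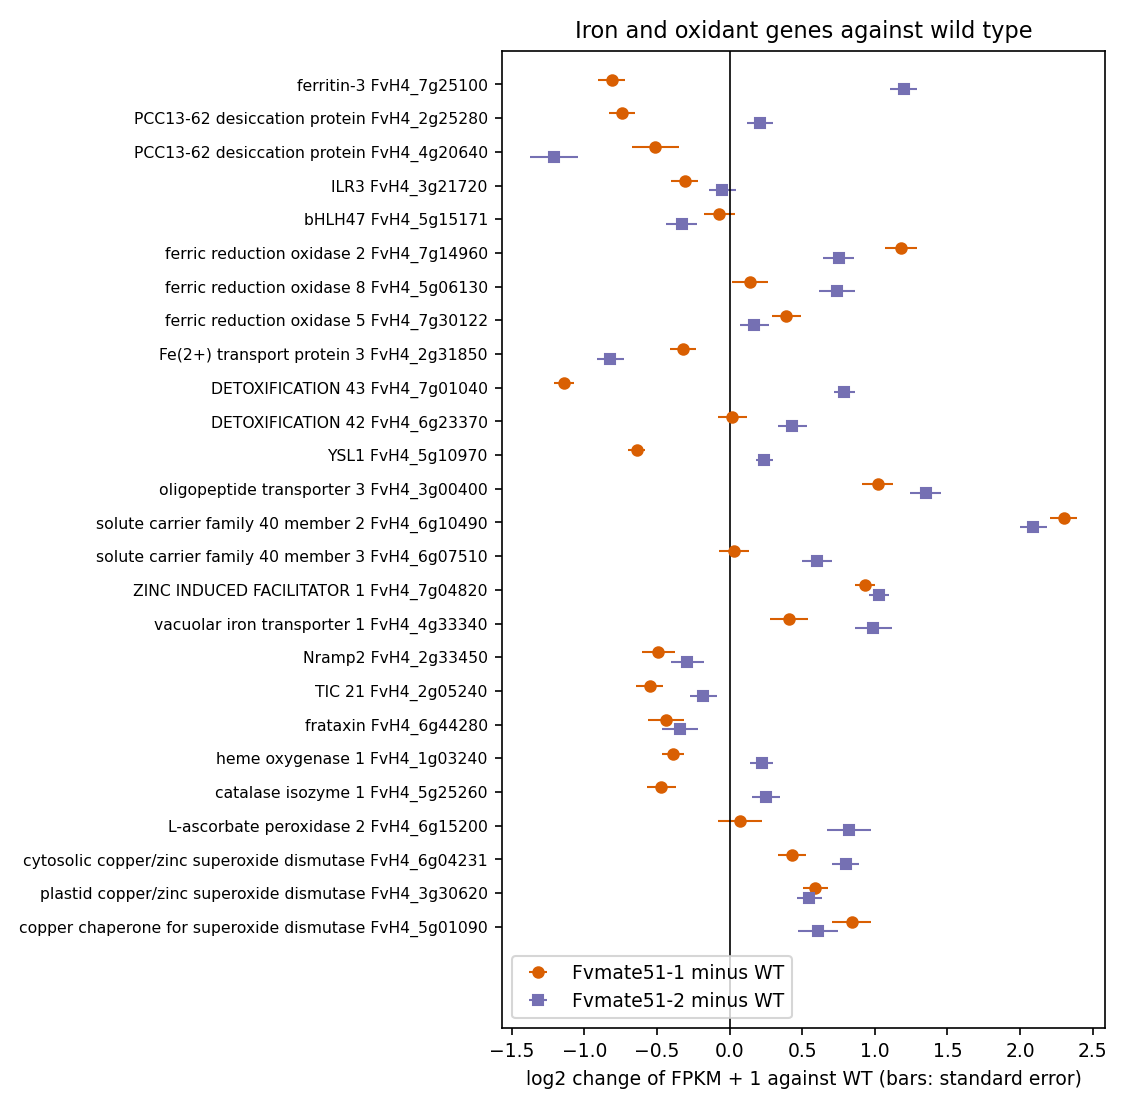
Change in log2(FPKM + 1) of most of the named iron and oxidant genes in Fvmate51-1 minus WT (circles) and Fvmate51-2 minus WT (squares), with bars of 1 standard error. Ferric reduction oxidases 2 and 5 and vacuolar iron transporter 1 are shown as a description. Ferritin-3 and DETOXIFICATION 43 lie on opposite sides of 0 in the lines, at -0.81 and 1.20 and at -1.14 and 0.79, while solute carrier family 40 member 2 lies at 2.30 and 2.09.

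Over all 11 iron lists, 140 genes matched, 138 without ferritin and ORG2, and 91 of those passed the filter on low values. In Fvmate51-1 against WT 12 of the 91 were higher and 23 lower, 38.5% in all beside 35.5% of all tested genes, with a median of -0.12 beside -0.01. In Fvmate51-2 against WT 19 were higher and 8 lower, 29.7% beside 30.4%, with a median of 0.04 beside 0.02. In Fvmate51-2 against Fvmate51-1 24 were higher and 5 lower, 31.9% beside 27.6%, with a median of 0.10 beside 0.01. For the mean of both lines against WT the counts were 15 higher and 17 lower, 35.2% called beside 34.9% of all tested genes (16.8% of all tested genes higher and 18.1% lower). The shares of iron genes called were thus near those of all genes in each comparison. FPKM summed over genes was 530914 to 539850 in Fvmate51-1, 559690 to 578233 in Fvmate51-2 and 555814 to 615870 in WT, and scaling moved the split by direction in some comparisons, for iron genes and for all genes. In Fvmate51-1 against WT, libraries rescaled to the same sum gave 15 higher and 15 lower iron genes; among all called genes the higher share was 61.8%, beside 46.4% without rescaling. In Fvmate51-2 against WT, rescaling gave 20 higher and 7 lower iron genes and a higher share of 50% among all called genes, beside 50.3%; limma-voom on recovered fragments gave 19 and 13 iron genes and a share of 46.5%. Between the lines, rescaling gave 17 higher and 9 lower iron genes and limma-voom 17 and 11; the higher share among all called genes was 40.5% and 41.6% with these, beside 55.9%. For both lines, rescaling gave 19 and 10 iron genes and a share of 57.7%, beside 48.2%.

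Nearby genes were examined for both loci. Of 10 listed genes around ferritin, from 6436097 to 6480983 on chromosome 6, 4 passed the filter. Over all tested genes 35.5% were called in Fvmate51-1 and 30.4% in Fvmate51-2 against WT, and 27.6% between the lines. Of the 4, 1 was called in each of these comparisons, a share not above those of all genes. That one is a mitochondrial carrier (FvH4_6g10760), on the minus strand 4914 bases before ferritin, at 24.3, 20.2 and 23.8 FPKM in Fvmate51-1, 60.3, 62.5 and 58.0 FPKM in Fvmate51-2, and 34.2, 38.6 and 37.9 FPKM in WT. Its groups did not overlap and stood in the order of ferritin. The carrier fell in Fvmate51-1 (-0.68 ± 0.086, adjusted p = 0.000198), rose in Fvmate51-2 (0.69 ± 0.086, adjusted p = 0.000159) and differed between the lines by 1.37 (adjusted p = 9.63e-07). On the other side, 1888 bases beyond ferritin, the plastid import protein TIC 56 (FvH4_6g10790) averaged 10.3 ± 0.359 FPKM in Fvmate51-1, 10.3 ± 0.562 FPKM in Fvmate51-2 and 10.5 ± 0.543 FPKM in WT. A listed gene without a description, FvH4_6g10780, overlaps the end of ferritin by 284 bases on the minus strand and is listed at 0 in every library. Whether counting used strand is not given in the sources used here.

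Around ORG2, from 10145224 to 10247151 on chromosome 2, 6 of 10 genes passed the filter. Against WT 3 were higher and 1 lower in Fvmate51-1, and 4 were higher and 1 lower in Fvmate51-2, where the log2 changes spanned -1.5 to 0.61; over all tested genes 16.5% were higher and 19.0% lower in Fvmate51-1, and 15.3% and 15.1% in Fvmate51-2. Between the lines 0 were called by limma's adjusted p or by limma-voom and 1 was higher at an unadjusted p under 0.05, with changes of -0.15 to 0.24. The nearest gene, nucleolar protein 10 (FvH4_2g11640), ends 464 bases before ORG2 and averaged 9.20 ± 1.1 FPKM in Fvmate51-1, 8.88 ± 0.992 FPKM in Fvmate51-2 and 9.21 ± 1.38 FPKM in WT. The lower gene in each line was FvH4_2g11612, which has integrase domains, is listed at 0 in all libraries of both lines, and stood at 1.87 ± 0.558 FPKM in WT. It passed the filter only through WT, so its calls are no fair test. The gene listed next to it, FvH4_2g11611, did not pass the filter. That gene averaged 0.00979 FPKM in Fvmate51-1, 0.0314 FPKM in Fvmate51-2 and 1.82 ± 0.854 FPKM in WT. The difference of ORG2 from WT in Fvmate51-2, and that between the lines, were larger in size than those of each tested neighbour. Since ORG2 was chosen from its levels in these libraries, this is no independent result.

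**Figure D4:**
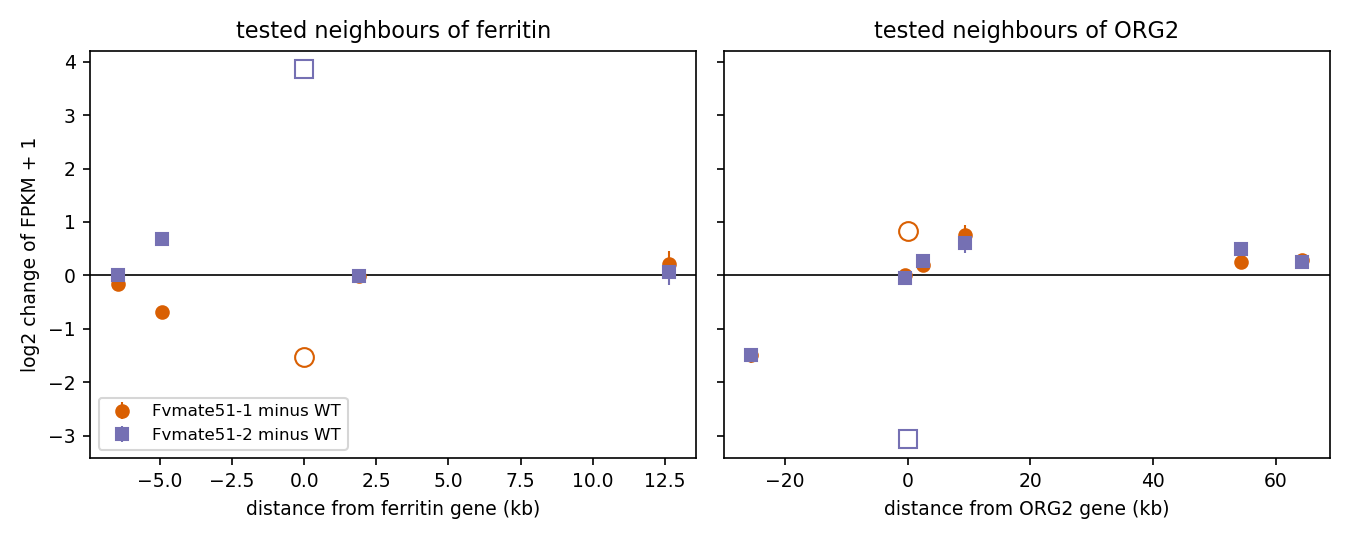
Change in log2(FPKM + 1) against WT of the tested genes around ferritin (left panel) and ORG2 (right panel), by distance in kilobases from each, in Fvmate51-1 (circles) and Fvmate51-2 (squares), with bars of 1 standard error. Open symbols are ferritin and ORG2 themselves; the mitochondrial carrier before ferritin lies at -0.68 and 0.69, and the nearest gene to ORG2 lies near 0 in both lines.

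Genes with profiles most like each of the pair were found by the root mean square difference between centred log2(FPKM + 1) profiles over the 9 libraries, where 0 is identity; this is a description and carries no p. The nearest gene to ferritin was FvH4_3g27411, without a description, at a distance of 0.400, with means of 0.607, 40.1 and 2.60 FPKM in Fvmate51-1, Fvmate51-2 and WT. A ribosomal protein L27 gene (FvH4_7g04670) followed at 0.662, then a gene listed as phloretin 4'-O-glucosyltransferase (FvH4_4g13000) at 0.693, FvH4_6g03170 without a description at 0.760, and jasmonate-induced oxygenase 2 (FvH4_2g07081) at 0.826. None of these 5 is in an iron list. The nearest in those lists were ferritin-3, number 67 at 1.467, and DETOXIFICATION 43, number 97 at 1.555.

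The nearest genes to ORG2 were FvH4_7g25910 and FvH4_6g30371, both at 0.516, FvH4_6g38920 at 0.579, FvH4_1g07981 at 0.583 and the calcium-binding protein CML38 (FvH4_5g26790) at 0.592. The first 4 of these have no description, though FvH4_1g07981 has a listed endonuclease domain. ORG2 also stood close to the mirror image of ferritin, that is, its profile with the sign turned: it was number 2 of all tested genes at a distance of 0.633, while ferritin was number 19 from the mirror image of ORG2 at that same distance. Number 1 was FvH4_1g04050, without a description, at 0.410, with means of 836, 15.9 and 431 FPKM in Fvmate51-1, Fvmate51-2 and WT; it was picked out after its values were seen. Since the pair was chosen for opposite levels in these libraries, their place in this order is no independent result.

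**Figure D5:**
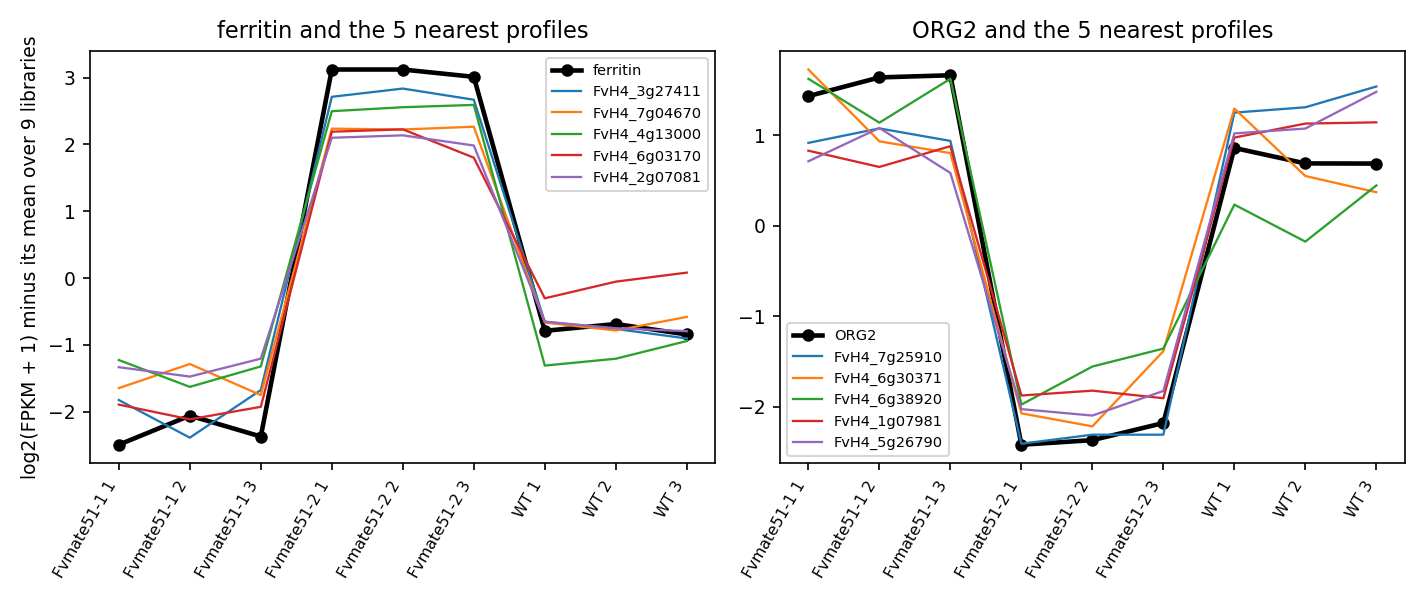
Centred log2(FPKM + 1) in each of the 9 libraries for ferritin with its 5 nearest genes (left panel) and ORG2 with its 5 nearest genes (right panel). The genes on the left peak in the 3 Fvmate51-2 libraries and those on the right are lowest there, with distances from the black line of 0.400 to 0.826 on the left and 0.516 to 0.592 on the right.

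Markers of the tissues a fruit sample can hold were summed per library, and their calls stand beside 35.5% of all tested genes called in Fvmate51-1 (16.5% higher, 19.0% lower) and 30.4% in Fvmate51-2 (15.3% higher, 15.1% lower). Ripening flesh genes, which include anthocyanin, pectin and expansin genes, summed to 14360 to 15801 FPKM in Fvmate51-1, 16537 to 16857 FPKM in Fvmate51-2 and 18677 to 20055 FPKM in WT; 2 of 35 tested were higher and 12 lower in Fvmate51-1, and 5 higher and 15 lower in Fvmate51-2. Achene (seed) genes summed to 2440 to 3069, 2774 to 2802 and 3361 to 3775 FPKM in the same groups, with 8 higher and 22 lower of 59 in Fvmate51-1 and 6 higher and 28 lower in Fvmate51-2. Pollen-named genes summed to 2352 to 2584, 2474 to 2523 and 2845 to 3181 FPKM, with 5 higher and 3 lower of 16 in Fvmate51-1 and 2 higher and 9 lower in Fvmate51-2. That list holds any gene with the word pollen in its description or domain, which need not mark pollen. Vascular genes summed to 493.4 to 512.2, 463.7 to 484.4 and 363.0 to 397.6 FPKM, with 7 higher and 3 lower of 19 in Fvmate51-1 and 5 higher and 5 lower in Fvmate51-2. Green tissue genes, the chlorophyll-binding proteins, summed to 75.69 to 87.20, 66.70 to 69.90 and 60.40 to 73.87 FPKM. Of 6 tested, 1 was higher and 1 lower in Fvmate51-1 against WT, and 0 were called in Fvmate51-2 against WT. Between the lines 1 was higher and 1 lower in Fvmate51-2, where 27.6% of all tested genes were called. Listed at 0 in every library were 47 flesh genes, 13 achene genes, 28 pollen genes, 11 vascular genes and 7 green tissue genes. The flesh, achene and pollen-named sums were below WT in both lines and the vascular sums above it. Green tissue sums were above WT in Fvmate51-1 and within the WT range in Fvmate51-2. The part of these tissues in the iron gene values was not tested.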

How the data were processed

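Poly(A) RNA from fruits was sequenced in 9 libraries. The authors deposited 1 table of FPKM per gene and library, scaled to gene length and library size, with coordinates and descriptions. Per the submitters' processing notes, featureCounts 2.0.6, StringTie 2.2.3, HISAT2 2.2.1 and fastp were used; what each did, and the genome build, is not given in the sources used here, and positions are as listed. Of the listed genes, 771 are transcripts outside the annotation. Multiplied by gene length, FPKM fell on whole multiples of a step fixed in each library (100% of values, within 0.02), which gave fragment numbers and the Poisson intervals.

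The members, gene lists, naming rule and tests were chosen with earlier results of these data known. The 15890 of 34777 genes that reached 1 FPKM in 3 or more of the 9 libraries were fitted as log2(FPKM + 1) with 3 group means and a mean-dependent prior (limma 3.58.1, R 4.3.3), and called where the two-sided p, adjusted by Benjamini-Hochberg across those genes, was below 0.05. Contrasts were each line against WT, Fvmate51-2 against Fvmate51-1, and the mean of both lines against WT. FPKM is not a count, so no count model gave a main result; limma-voom on recovered fragments was an alternative. Folds are ratios of mean FPKM. Lists are word patterns matched to descriptions and domains, and also caught genes outside their names, such as a protein disulfide-isomerase among iron-sulfur genes and dnaJ proteins among ferredoxins.

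Beside the pair, a rule picked 84 genes. These were other ferritin, ORG2 and FIT entries, up to 4 tested genes per iron list with the lowest adjusted p for both lines and the 2 with the highest mean, 5 genes on each side of each member, and the 5 most like each. Not all 84 are described. For example, YSL7 (FvH4_5g18420) was picked for its mean, was called in no comparison and is left out. The genes described thus lean towards those that changed. Others are marked as picked after their values were seen. Libraries of a group differed by more than sampling allows (chi-square per gene, averaged, 4.38 to 55.0), so none was a copy. Principal components held 41.5%, 39.1% and 7.02% of the variance; on the third, WT replicate 3 (-19.4) and Fvmate51-1 replicate 2 (-14.8) stood apart from the others (-4.32 to 12.7). Alternatives were another pseudocount, filters, scalings, voom, a replicate block, only the groups compared, and libraries left out. No gene ID matched the RefSeq table, so no sequences are shown and no promoter was searched.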

Additional observations from a re-analysis of the deposited data

Results flagged for a closer look

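Results were picked out where the change against WT differed between the lines by limma's adjusted p, so the adjusted p values below are a description. Among all tested genes 27.6% were called in that comparison, 15.4% higher and 12.2% lower in Fvmate51-2. Several of the genes below, as marked above, had already been picked out after their values were seen. All values here are the Fvmate51-2 minus Fvmate51-1 difference on the log2(FPKM + 1) scale. Ferritin (5.4) and ORG2 (-3.90) had every library of one line above and every library of the other below WT, and their difference was not tested. Among genes of iron storage, ferritin-3 differed by 2.00 (adjusted p = 9.38e-08), and the desiccation proteins FvH4_2g25280 and FvH4_4g20640 differed by 0.95 (adjusted p = 2.26e-05) and -0.69 (adjusted p = 0.00953). Among genes listed as reductases and importers, ferric reduction oxidase 2 differed by -0.42 (adjusted p = 0.0143), ferric reduction oxidase 8 by 0.60 (adjusted p = 0.00427) and Fe(2+) transport protein 3 by -0.50 (adjusted p = 0.00209).

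Among carriers, DETOXIFICATION 43 differed by 1.93 (adjusted p = 1.63e-08), DETOXIFICATION 42 by 0.41 (adjusted p = 0.0105), YSL1 by 0.88 (adjusted p = 2.2e-06), oligopeptide transporter 3 by 0.33 (adjusted p = 0.0396) and solute carrier family 40 member 3 by 0.57 (adjusted p = 0.00216). Vacuolar iron transporter 1 differed by 0.57 (adjusted p = 0.00737), TIC 21 by 0.38 (adjusted p = 0.0136) and heme oxygenase 1 by 0.61 (adjusted p = 0.000209). Among oxidant enzymes, catalase isozyme 1 differed by 0.72 (adjusted p = 0.00031), L-ascorbate peroxidase 2 by 0.75 (adjusted p = 0.00371) and cytosolic copper/zinc superoxide dismutase by 0.37 (adjusted p = 0.0135). Catalase isozyme 1 and L-ascorbate peroxidase 2 had been picked out because they differed, so their adjusted p values are no independent test. The same holds for DETOXIFICATION 43 and YSL1, picked out because they moved in opposite directions in the lines. The mitochondrial carrier beside ferritin differed by 1.37 (adjusted p = 9.63e-07). Of these calls, that of oligopeptide transporter 3 was lost in 11 of the alternatives. Ferric reduction oxidase 2, DETOXIFICATION 42 and TIC 21 each lost theirs in 1 alternative, and cytosolic copper/zinc superoxide dismutase in 2.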

How the results depend on the processing

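Both ferritin and ORG2 kept their direction under every alternative run. With a pseudocount of 0.1, ferritin changed by -1.74 in Fvmate51-1 and 5.70 between the lines, and ORG2 by -5.15 in Fvmate51-2 and -6.05 between the lines. With voom on recovered fragments, ferritin changed by -1.73 in Fvmate51-1 and 5.67 between the lines, and ORG2 by 0.96 in Fvmate51-1, -5.86 in Fvmate51-2 and -6.82 between the lines; the size of the ORG2 difference in Fvmate51-2 thus depends on the prior added to its few fragments. Without WT replicate 3 and Fvmate51-1 replicate 2 together, ferritin changed by -1.69 in Fvmate51-1. Between the lines, 45 in place of 29 of 91 iron list genes were then called. Over all 15890 tested genes the calls rose likewise, with 5962 in place of 4390. The cause was not tested.

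Leaving out 1 library at a time gave ferritin changes of -1.66 to -1.44 in Fvmate51-1, 3.83 to 3.91 in Fvmate51-2 and 5.30 to 5.52 between the lines. ORG2 gave 0.79 to 0.91, -3.14 to -3.01 and -3.97 to -3.85 in the same comparisons. Genes called were 4410 to 5843 for both lines, 4177 to 5382 for Fvmate51-1, 3344 to 5303 for Fvmate51-2 and 3289 to 5335 between the lines, and iron list genes called were 26 to 32, 29 to 36, 20 to 35 and 20 to 38. Stability of calls was followed in 27 of the genes described above, not in all that the naming rule picked. Of 59 called changes of these genes 47 stayed called under all alternatives run and 12 did not. Of 22 not called, 15 stayed so. Across both, 0 reversed. No scaling moved the median of all genes by over 0.1.

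Replicate numbers do not pair the libraries: deviations of same-numbered libraries correlated at -0.262 to 0.164 and those of others at -0.182 to 0.213. With a replicate block 4672, 4668, 4019 and 3794 genes were called for both lines, Fvmate51-1, Fvmate51-2 and between the lines, and 28, 31, 23 and 24 iron list genes. Restricting the fit to the groups compared could not be applied to both lines against WT.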
